A study of Mus musculus with 30 samples.

Results

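Ms4a3, Ms4a6b, Ms4a6c and Ms4a6d are 4 of the 11383 genes in a table of RNA levels of sorted mouse bone marrow progenitors, and all 4 were looked up by symbol and found. The series was made to set a population called GMP-MoP beside neutrophil and monocyte progenitors. It holds 30 libraries in 10 groups of 3, all from WT mice. 6 groups were naive. They were MDP, a progenitor of monocytes and dendritic cells; cMoP, the common monocyte progenitor; GMP, which gives granulocytes and monocytes; GMP-MoP; and the early neutrophil progenitors proNeu1 and proNeu2. 4 groups, GMP, GMP-MoP, proNeu1 and proNeu2, came from mice given LPS, the lipopolysaccharide of Gram-negative bacteria, 2 days earlier. The labels give no sort gates, LPS dose or route, mouse age or strain, and do not say whether mice were pooled. Replicates are labelled biological, with no word on whether each was a separate mouse.

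MS4A proteins cross the membrane 4 times and sit at the cell surface or in intracellular membranes. The family includes CD20 of B cells (Ms4a1) and the beta chain of the high-affinity IgE receptor (Ms4a2), and most of its genes lie side by side in one cluster. Ms4a3, also called HTm4, is a gene of the granulocyte-monocyte progenitor branch: a Cre driver built on it marks the descendants of GMP and leaves most progeny of MDP unmarked. The Ms4a6 genes are known as genes of monocytes and macrophages, and Ms4a6b also of T cells. Monocytes can arise from GMP and from MDP by way of cMoP, while proNeu1 and then proNeu2 follow GMP on the path to neutrophils.

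The 4 genes lie within 171 kb of mouse chromosome 19 (GRCm38, GENCODE M21). Ms4a6c is at chr19:11469366-11482192 on the plus strand and Ms4a6b at chr19:11516512-11531256 on the plus strand. Ms4a6d is at chr19:11586604-11604849 and Ms4a3 at chr19:11629496-11640851, both on the minus strand. All are annotated as protein-coding. Since members of such a cluster can be near copies, the 250 bases before the RefSeq start of Ms4a3, Ms4a6b and Ms4a6c (build GRCm38.p6) are shown 5′ to 3′ on the strand of each gene. Capitals mark runs of at least 12 identical bases shared by Ms4a6b and Ms4a6c.
Ms4a3, chr19:11640852-11641101, minus strand: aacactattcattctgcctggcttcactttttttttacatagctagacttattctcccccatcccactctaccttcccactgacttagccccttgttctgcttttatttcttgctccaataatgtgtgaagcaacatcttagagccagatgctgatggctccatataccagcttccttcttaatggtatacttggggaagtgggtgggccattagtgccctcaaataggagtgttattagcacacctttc
Ms4a6b, chr19:11518309-11518558, plus strand: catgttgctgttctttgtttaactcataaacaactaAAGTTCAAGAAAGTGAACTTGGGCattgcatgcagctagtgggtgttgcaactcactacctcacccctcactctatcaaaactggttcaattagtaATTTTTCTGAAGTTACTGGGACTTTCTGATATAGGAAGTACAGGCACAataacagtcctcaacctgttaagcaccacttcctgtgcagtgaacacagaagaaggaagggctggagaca
Ms4a6c, chr19:11469118-11469367, plus strand: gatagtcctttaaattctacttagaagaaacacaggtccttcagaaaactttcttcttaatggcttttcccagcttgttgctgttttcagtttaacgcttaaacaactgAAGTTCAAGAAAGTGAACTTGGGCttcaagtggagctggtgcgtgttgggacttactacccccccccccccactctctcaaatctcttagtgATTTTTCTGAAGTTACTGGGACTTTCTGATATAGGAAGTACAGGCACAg
Ms4a6b and Ms4a6c shared 2 such runs, of 24 and 48 bases, in the same order. The RefSeq start of Ms4a6b lies inside the gene span that GENCODE gives. The nearest base of the 48-base run lay 2 bases before the start of Ms4a6c and 71 bases before that of Ms4a6b. The longest run that Ms4a3 shared was 8 bases with Ms4a6b and 11 bases with Ms4a6c. The ETS core GGAA, searched on both strands, was found 3 times in Ms4a3, 3 times in Ms4a6b and 2 times in Ms4a6c. It was also present in 93.4% of 32851 mouse promoter windows of this length. The copy inside the 48-base run was a plus-strand match in both genes. Other motifs were searched on both strands. The PU.1 letters GAGGAA are present in 23.3% of windows and the RUNX letters TGTGGT in 14%. The C/EBP letters TTGCNNAA are present in 9.56% and the GATA letters AGATAA in 9.99%. The IRF and ETS-IRF motifs are present in 2.98% and 2.3%. None of these 6 had a match in the 3 windows. The ETS core is part of the PU.1 and ETS-IRF motifs.

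Reads could in part be shared between the genes. Of the 31-base words in the annotated exons, 14.2% of those of Ms4a6c, 7.71% of those of Ms4a6b and 5.1% of those of Ms4a6d also occurred on the same strand in another of the 4 genes, and 0.0% of those of Ms4a3. With any other annotated gene counted, the shares were 21.9% for Ms4a6c, 7.84% for Ms4a6b, 8.11% for Ms4a6d and 0.798% for Ms4a3. In addition 51.0% of the words of Ms4a6c lie opposite exons of BE692007, an antisense transcript at chr19:11470166-11484578. The library kit keeps strand, but the strand setting of the counting is not stated, so how reads over these exons were assigned is uncertain. BE692007 was itself listed at 6.08 ± 0.345 FPKM (SD, n = 3) in naive cMoP and at 0.0439 ± 0.0567 FPKM in naive proNeu2. FPKM, fragments per exon length and library depth, is a level per length and can be compared between genes, within the limits of such shared reads.

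Ms4a3 was among the most abundant RNAs of the neutrophil progenitors and far lower in MDP. In naive proNeu2 its level was 933, 1122 and 1256 FPKM in the 3 libraries, rank 35 of 11383 genes by mean. Naive proNeu1 held 973, 1108 and 1053 FPKM. Naive GMP-MoP held 718, 775 and 618 FPKM, and naive GMP 313, 450.1 and 452 FPKM. Naive cMoP stood lower, at 179, 169 and 183 FPKM, and naive MDP lowest, at 17.1, 19.9 and 16.97 FPKM, rank 4179. The highest group mean was 61.7-fold the lowest. In the order of group means, LPS proNeu2, naive proNeu2, LPS proNeu1 and naive proNeu1 overlapped each with the next. LPS GMP-MoP and naive GMP-MoP also overlapped, and the other neighbours in the order did not.

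**Figure D1:**
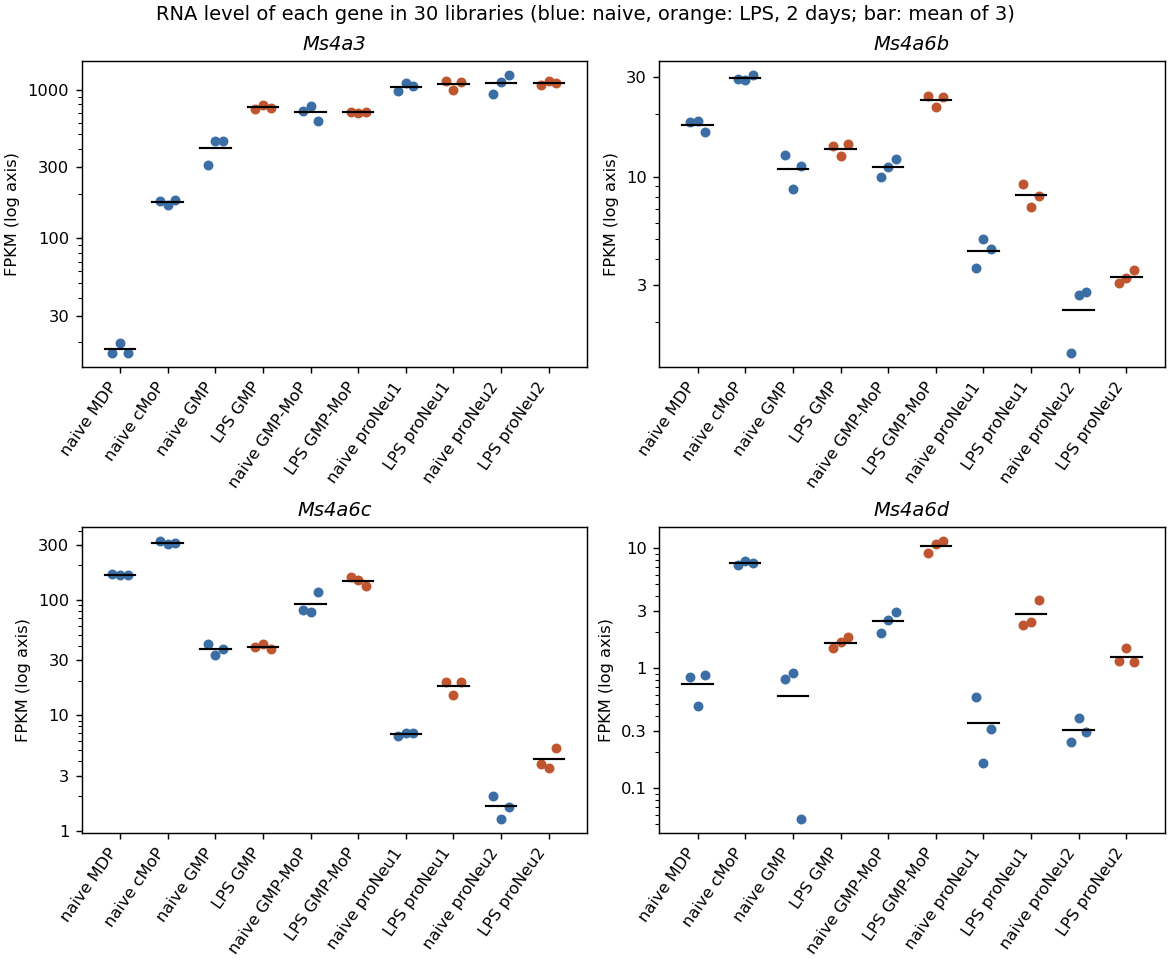
RNA level of each gene (FPKM, log axis, a separate scale for each gene) in 30 libraries of 10 groups; points are libraries, bars the mean of 3, blue naive and orange LPS. Ms4a3 is lowest in naive MDP (16.97 to 19.9 FPKM) and highest in the proNeu1 and proNeu2 groups, which overlap. Ms4a6c is highest in naive cMoP (306 to 325 FPKM) and lowest in naive proNeu2 (1.26 to 2.01 FPKM).

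Ms4a6c had its highest levels in monocyte progenitors and was above Ms4a6b in 28 of 30 libraries. Naive cMoP held 325, 306 and 312 FPKM, rank 160 of 11383 genes. Naive MDP held 167, 165 and 166 FPKM. Naive GMP-MoP came next among naive groups with 82.4, 79.5 and 116 FPKM, ahead of naive GMP with 41.4, 33.6 and 37.9 FPKM. The neutrophil progenitors were lowest, at 6.57, 7.02 and 6.98 FPKM in naive proNeu1 and at 2.01, 1.26 and 1.60 FPKM in naive proNeu2. The highest group mean was 193.9-fold the lowest. LPS GMP and naive GMP overlapped, and every other neighbouring pair of groups in the order did not.

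Ms4a6b, for which a T cell role is known, was lower and spanned 12.9-fold between group means. Naive cMoP held 29.4, 29.1 and 30.7 FPKM and naive MDP 18.2, 18.5 and 16.4 FPKM. Naive GMP-MoP held 9.97, 11.2 and 12.1 FPKM, all within the range of naive GMP at 12.7, 8.68 and 11.3 FPKM. Naive proNeu1 was at 3.65, 5.02 and 4.498 FPKM and naive proNeu2 at 1.42, 2.69 and 2.78 FPKM. Those neutrophil progenitor libraries were all below every other naive library.

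Ms4a6d was the least abundant. Its mean in naive MDP was 0.097 of that in cMoP, against 0.596 for Ms4a6b and 0.529 for Ms4a6c. Naive cMoP held 7.24, 7.86 and 7.57 FPKM, and naive GMP-MoP 1.98, 2.53 and 2.94 FPKM. Naive MDP was at 0.838, 0.483 and 0.879 FPKM, naive proNeu1 at 0.573, 0.163 and 0.311 FPKM and naive proNeu2 at 0.243, 0.386 and 0.292 FPKM. In naive GMP it was at 0.81, 0.905 and 0.0552 FPKM, which stood for 33, 41 and 2 reads. The third GMP library was thus far below the other 2. Its highest mean was not in a naive group: LPS GMP-MoP held 9.07, 10.9 and 11.5 FPKM, above all 3 cMoP libraries.

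The balance of Ms4a3 and Ms4a6c turned over between naive MDP and cMoP and all other groups, GMP-MoP included. Ms4a3 was above Ms4a6d in 30 of 30 libraries, above Ms4a6b in 29 and above Ms4a6c in 24, the other 6 being those of naive MDP and cMoP. The ratio of mean FPKM of Ms4a3 to Ms4a6c was 0.108 in naive MDP, 0.562 in cMoP, 7.59 in GMP-MoP, 10.8 in GMP, 152 in proNeu1 and 681 in proNeu2. GMP-MoP lay next to GMP on this scale, and its libraries, at log2 ratios of FPKM + 1 of 3.11, 3.27 and 2.40, overlapped those of GMP at 2.89, 3.71 and 3.54. Within the summed FPKM of the 3 Ms4a6 genes, Ms4a6c made up 90 ± 0.478% in naive MDP, 89.4 ± 0.414% in cMoP and 39.3 ± 13.6% in proNeu2 (SD, n = 3). In proNeu2 that sum was only 4.23 FPKM on average.

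**Figure D2:**
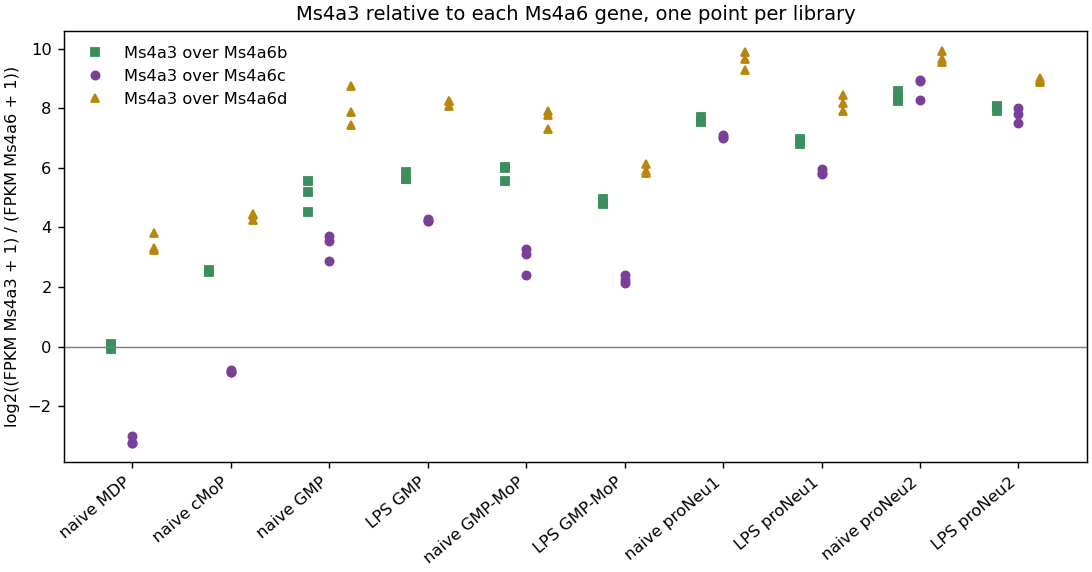
Log2 of (FPKM of Ms4a3 + 1) over (FPKM of a Ms4a6 gene + 1) in each library of the 10 groups; the grey line marks equal values. Against Ms4a6c the ratio is below 0 in the 6 libraries of naive MDP and cMoP and reaches 8.28 to 8.96 in naive proNeu2.

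Differences between groups were read from a limma fit on log2(FPKM + 1) over all genes, which understates changes of low genes. For Ms4a6d the log2 fold changes were more than 1.5 times as large when whole reads recovered from the FPKM values were fitted with voom, as in GMP-MoP against MDP (1.78 in place of 1.01), GMP (2.63 for 1.17) and proNeu1 (2.95 for 1.37), in cMoP against GMP (4.24 for 2.48) and proNeu1 (4.56 for 2.68), and in proNeu1 after LPS (3.08 for 1.495), all with the same call. A gene was called higher or lower where it differed by a fold of 2 or more (a log2 fold change of 1) and its p, adjusted after Benjamini and Hochberg, was under 0.05. Many comparisons share a group, so they are not independent of each other. In bulk RNA a change in the share of cells that express a gene and a change in RNA per cell cannot be told apart. In this fit Ms4a3 was called in 7 of 10 comparisons between naive groups, Ms4a6b in 5, Ms4a6c in 8 and Ms4a6d in 7. Each of these comparisons called between 1.34% and 12.5% of all genes. How often other genes were called over the 10 together was not counted.

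Between the monocyte-committed cMoP and the neutrophil-committed proNeu1, all 4 genes were called, against 12.5% of the 11383 genes. Ms4a3 was lower in cMoP (log2 fold change -2.56 ± 0.11 SE, limma adjusted p = 5.53e-16), with group means of 177 ± 7.29 and 1045 ± 67.5 FPKM. Ms4a6c was 45.9-fold higher (5.33 ± 0.13, limma adjusted p = 8.97e-21), Ms4a6b 6.78-fold (2.52 ± 0.14) and Ms4a6d 21.7-fold (2.68 ± 0.17). Other genes of the same lineages moved as follows. Of 12 measured genes of a list for primary granules, Ms4a3 left out, 10 were lower and 1 higher in cMoP (median log2 fold change -1.32). Of 15 measured monocyte markers, Ms4a genes left out, 13 were higher (median 4.47). The median over all genes was 0.07.

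GMP-MoP stood between these populations in all 4 genes. Against cMoP all 4 were again called, where 4.6% of all genes were: Ms4a3 was 3.98-fold higher (log2 fold change 1.98 ± 0.11, limma adjusted p = 7.79e-13). Ms4a6c was 3.39-fold lower (-1.77 ± 0.13, limma adjusted p = 5.34e-11), with Ms4a6b at -1.35 ± 0.14 and Ms4a6d at -1.31 ± 0.17. Against proNeu1, 3 of 4 were called, with 5.7% of all genes. Ms4a6c was 13.5-fold higher in GMP-MoP (3.56 ± 0.13, limma adjusted p = 2.48e-16), Ms4a6b 2.53-fold (1.17 ± 0.14) and Ms4a6d 7.12-fold (1.37 ± 0.17). Ms4a3 had a log2 fold change of -0.57 ± 0.11, under the 2-fold limit, although every GMP-MoP library was below every proNeu1 library (limma adjusted p = 0.000172).

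Against GMP, 2 of 4 genes were called and 8.55% of all genes. Ms4a6c was 2.47-fold higher in GMP-MoP (1.26 ± 0.13, limma adjusted p = 9.13e-09) and Ms4a6d 4.21-fold (1.17 ± 0.17). The Ms4a6d value fell under the limit, to 0.90, without the third naive GMP library, the one with 2 reads. Ms4a3 was at 704 ± 79.2 against 405 ± 79.8 FPKM with no overlap, and its log2 fold change of 0.81 ± 0.11 also stayed under the limit. Ms4a6b did not differ beyond the spread (0.04, with a 95% interval of -0.23 to 0.30). The naive GMP libraries also held far more RNA of basophil, eosinophil and mast cell markers: the summed level of 14 measured genes was 18440 to 20340 FPKM, against 98.1 to 134.7 FPKM in naive GMP-MoP. All 14 were called lower in GMP-MoP, where Fcer1a was at 0 in every library. The part of these cells in the differences from GMP was not tested.

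Against MDP, 2 of 4 genes were called in GMP-MoP and 9.59% of all genes. Ms4a3 was 39.1-fold higher (5.21 ± 0.11, limma adjusted p = 1.79e-21). Ms4a6d was 3.39-fold higher, at 1.01 ± 0.17 only just past the limit, and fell short of it when any of 3 libraries was left out (lowest 0.90, without the second naive MDP library). Ms4a6b (-0.63 ± 0.14) and Ms4a6c (-0.86 ± 0.13) lay on the opposite side, with no overlap of the groups but under the limit. Ms4a6c reached -1.03 and was called without the third naive GMP-MoP library.

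From MDP to cMoP, 2 of 4 genes were called, with 7.54% of all genes. Ms4a3 rose 9.82-fold (3.23 ± 0.11, limma adjusted p = 1.87e-17) and Ms4a6d 10.3-fold (2.31 ± 0.17, limma adjusted p = 4.6e-11). Ms4a6b (0.72 ± 0.14) and Ms4a6c (0.92 ± 0.13) were above in every cMoP library but under the 2-fold limit. With median-of-ratios scaling Ms4a6c reached 1.01 and was called. cMoP against GMP gave 4 of 4 called, with 11.4% of all genes: Ms4a3 was 2.29-fold lower in cMoP (-1.17 ± 0.11), while Ms4a6b (1.39), Ms4a6c (3.03) and Ms4a6d (2.48) were higher. MDP against GMP gave 2 of 4 called, with 8.15% of all genes, namely Ms4a3 lower by 22.5-fold (-4.40 ± 0.11) and Ms4a6c higher by 4.42-fold (2.12 ± 0.13).

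From GMP to proNeu1, 3 of 4 genes were called, with 12.4% of all genes. Ms4a3 rose 2.58-fold (1.38 ± 0.11, limma adjusted p = 1.1e-10), while Ms4a6c fell to 0.182 of its GMP level (-2.29 ± 0.13, limma adjusted p = 8.18e-14) and Ms4a6b to 0.404 (-1.13 ± 0.14). Ms4a6d was at 0.349 ± 0.208 and 0.59 ± 0.466 FPKM, and the groups overlapped. Basophil, eosinophil and mast cell markers summed to 453 to 1004 FPKM in naive proNeu1, against 18440 to 20340 FPKM in GMP. Of 14 measured, 13 were called lower in proNeu1, and the part of these cells was not tested. From proNeu1 to proNeu2, 1 of 4 was called, with 1.34% of all genes: Ms4a6c fell 4.23-fold (-1.59 ± 0.13, limma adjusted p = 2.26e-09). Ms4a3 levels overlapped between these groups (0.07, 95% interval -0.15 to 0.29), as did those of Ms4a6d (-0.04, -0.38 to 0.31). Ms4a6b was lower in every proNeu2 library, at -0.73 ± 0.14.

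**Figure D3:**
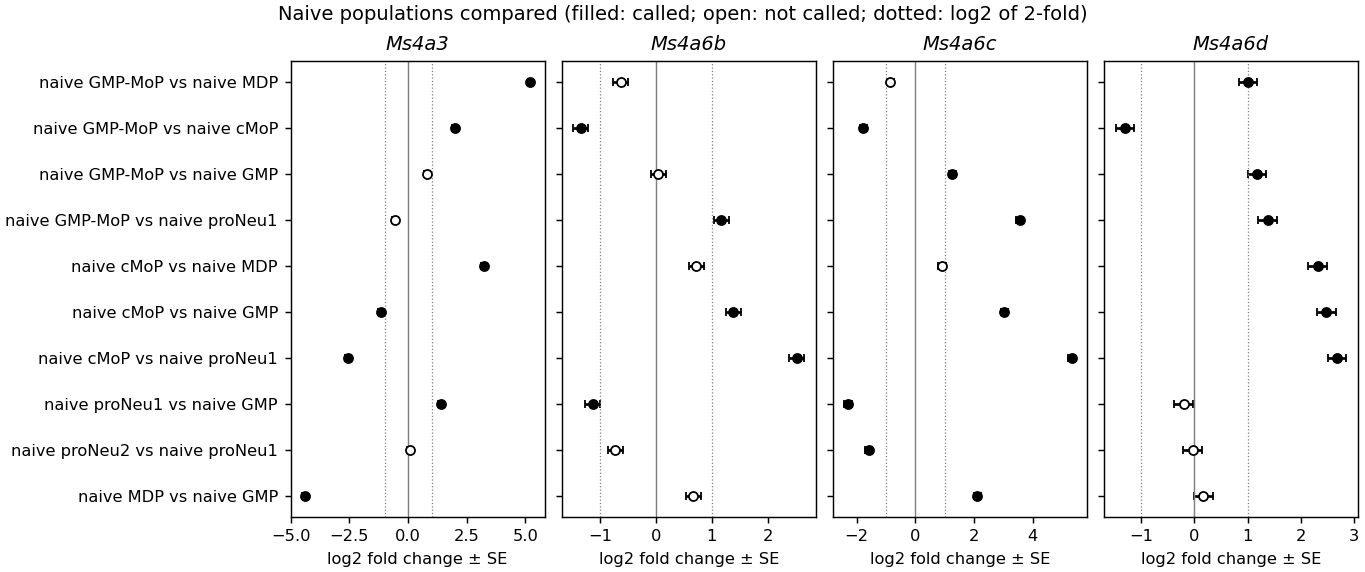
Log2 fold changes ± SE (first group minus second) of the 4 genes in 10 comparisons of naive groups, each panel with its own scale; filled points passed the call, dotted lines mark the 2-fold limit. In GMP-MoP against cMoP, Ms4a3 (1.98) lies opposite to Ms4a6b (-1.35), Ms4a6c (-1.77) and Ms4a6d (-1.31).

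Ms4a3 levels after LPS overlapped the naive ones in 3 of 4 populations. LPS GMP-MoP held 703, 699.9 and 712 FPKM, within the naive range of 618 to 775 FPKM. LPS proNeu1 held 1142, 993 and 1133 FPKM and LPS proNeu2 1073, 1149 and 1108 FPKM, and each overlapped its naive group. The log2 changes were 0.01 (95% interval -0.21 to 0.23), 0.06 (-0.16 to 0.28) and 0.02 (-0.20 to 0.24). In GMP, by contrast, all LPS libraries, at 745, 792 and 753 FPKM, were above the naive ones. That change was 0.93 ± 0.11 (limma adjusted p = 3.9e-07), a ratio of means of 1.89 and so under the 2-fold limit. It ranged from 0.76 without the first naive GMP library, which was the lowest at 313 FPKM, to 1.02 without the third, and it was called when the second or the third was left out.

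The difference of LPS effects was tested directly. The effect on Ms4a3 was smaller in GMP-MoP than in GMP by 0.93 ± 0.16 on the log2 scale (limma adjusted p = 0.000136) and smaller in proNeu1 than in GMP by 0.87 ± 0.16 (limma adjusted p = 0.000298). Both share the GMP libraries and both were under the 2-fold limit. The first reached -1.01 and was called without the second or the third naive GMP library, and -1.02 without the third naive GMP-MoP library. The 12 measured genes of the list for primary granules, Ms4a3 left out, had a median LPS change of 0.76 in GMP. There 4 were called higher, Prtn3, Ctsg, Gstm1 and Hp, of which Hp is also on the list for secondary granules. In GMP-MoP the median was 0.31, limma called 0 and 9 had an unadjusted p under 0.05, as had 41.4% of all genes. The medians of all genes were -0.06 and -0.04. In the same GMP libraries, many markers of other cells were lower after LPS. Of 19 measured monocyte markers, Ms4a genes included, 8 were called lower and 3 higher, with a median log2 change of -0.35. Those lower were Klf4, Irf8, Irf5, Ctss, Ly86, Lgals3, Itgb7 and Ms4a4c, and those higher were Ly6c2, F13a1 and Cd14. The summed level of the 14 basophil, eosinophil and mast cell markers was 7468 to 9016 FPKM against 18440 to 20340 FPKM, with 7 of 14 called lower. Of 8 macrophage markers 6 were called lower, with sums of 77.9 to 100.9 FPKM in naive and 29.4 to 35.5 FPKM in LPS libraries. Of 4 B cell markers 3 were called lower, with sums of 30.96 to 50.5 and 16.9 to 19.4 FPKM. Their part in the change of Ms4a3 was not tested.

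The Ms4a6 genes were higher after LPS in GMP-MoP and proNeu1, though not all past the limit. In GMP-MoP, 2 of 4 genes were called, with 1.13% of all genes. Ms4a6d rose 4.23-fold, from 1.98, 2.53 and 2.94 to 9.07, 10.9 and 11.5 FPKM (1.73 ± 0.17, limma adjusted p = 2.02e-07). Ms4a6b rose 2.11-fold, from 9.97, 11.2 and 12.1 to 24.4, 21.5 and 24.2 FPKM (1.01 ± 0.14, limma adjusted p = 6.73e-06). It stood just at the limit and was not called when any of 3 libraries was left out (lowest 0.95, without the first naive one). Ms4a6c was at 158, 149 and 133 FPKM against 82.4, 79.5 and 116 FPKM, with no overlap and a log2 change of 0.67 ± 0.13 (limma adjusted p = 0.000358).

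In proNeu1, 2 of 4 were called, with 1.47% of all genes. Ms4a6c rose 2.62-fold to 19.3, 15.1 and 19.5 FPKM (1.26 ± 0.13, limma adjusted p = 2.46e-07). Ms4a6d rose 8.1-fold to 2.30, 2.43 and 3.74 FPKM (1.495 ± 0.17, limma adjusted p = 1.35e-06). Ms4a6b was at 9.16, 7.17 and 8.08 FPKM, above each naive library (0.76 ± 0.14). The 3 genes together still made up only 28.9 FPKM in LPS proNeu1, against 180.4 FPKM in LPS GMP-MoP and 1089 FPKM of Ms4a3 in LPS proNeu1.

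In proNeu2, 0 of 4 genes were called by limma on log2(FPKM + 1), with 0.993% of all genes. At an adjusted p under 0.05 without a fold limit, 3 of 4 passed, as did 36.7% of all genes, and the same number had an unadjusted p under 0.05, against 45.6% of all genes. Ms4a6c was at 3.76, 3.50 and 5.16 FPKM against 2.01, 1.26 and 1.60 FPKM, a ratio of means of 2.55 that the added 1 brought down to a log2 change of 0.97 ± 0.13. On the reads recovered from the FPKM values, with voom, the change was 1.38 and was called. Ms4a6d, at 1.16, 1.47 and 1.13 FPKM against 0.243, 0.386 and 0.292 FPKM, changed by 0.78 ± 0.17, or by 2.00 and called with voom.

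In GMP, 0 of 4 were called by limma, with 3.95% of all genes, and 2 of 4, Ms4a3 and Ms4a6d, had an adjusted p under 0.05, as had 48.9% of all genes. At an unadjusted p under 0.05 there were 3, Ms4a6b being the other, against 55% of all genes. Ms4a6c overlapped between LPS and naive GMP (0.07, 95% interval -0.18 to 0.32), as did Ms4a6b (0.31, 0.05 to 0.58). Ms4a6d was at 1.46, 1.64 and 1.81 FPKM after LPS, above all naive libraries (0.78 ± 0.17, or 2.07 and called with voom). Without the third naive library, the one with 2 reads, the limma value was 0.50.

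Tested as a difference of LPS effects, Ms4a6c responded more in proNeu1 than in GMP by 1.197 ± 0.18 (limma adjusted p = 3.85e-05). It was the 1 of 4 genes called there, with 3.36% of all genes. Of 19 measured monocyte markers, Ms4a genes included, 11 were called higher there and 2 lower (median 1.38). The same list had 10 higher and 2 lower in GMP-MoP minus GMP (median 1.38). In GMP-MoP minus GMP, 0 of 4 genes were called by limma and by voom, with 3.92% of all genes, while 4 of 4 had an adjusted p under 0.05, as had 24.9% of all genes. The differences were 0.70 ± 0.19 for Ms4a6b (limma adjusted p = 0.00922) and 0.61 ± 0.18 for Ms4a6c (limma adjusted p = 0.016). That for Ms4a6d was 0.95 ± 0.25 (limma adjusted p = 0.00642), but 0.31 with a pseudocount of 0.1 and 0.0018 with voom (limma adjusted p = 0.768 and 0.999). In proNeu1 minus GMP, 3 of 4 had an adjusted p under 0.05, as had 22.1% of all genes. Ms4a6d had 0.72 ± 0.25 (limma adjusted p = 0.0389, or 0.253 with a pseudocount of 0.1 and 0.368 with voom) and Ms4a6b 0.45 ± 0.19 (limma adjusted p = 0.0941). For the 4 genes, 0 differences of LPS effects between GMP-MoP and proNeu1, or between proNeu2 and proNeu1, had an adjusted p under 0.05 in limma, against 0.378% and 0.307% of all genes, and 0 were called, against 0.22% and 0.158%. At an unadjusted p under 0.05 there was 1 gene in each, Ms4a6c at -0.59 in the first and Ms4a6d at -0.71 in the second, against 7.6% and 9.16% of all genes.

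**Figure D4:**
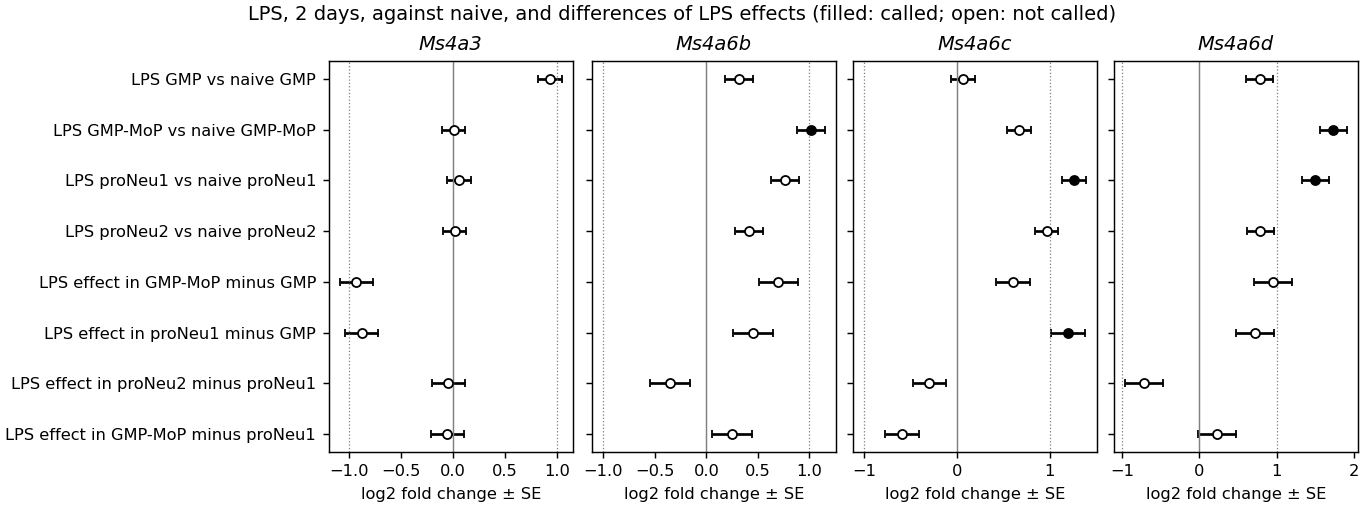
Log2 fold changes ± SE after LPS in 4 populations, and differences of those effects between populations, each panel with its own scale; filled points passed the call. Among the changes after LPS, Ms4a3 is near 0 except in GMP (0.93), and its differences of effects against GMP are -0.93 and -0.87; the called points are Ms4a6b in GMP-MoP, Ms4a6c in proNeu1, Ms4a6d in both, and the Ms4a6c difference of proNeu1 minus GMP (1.197).

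Other genes gave the setting of these changes. Among 15 measured monocyte markers, Ms4a genes left out, 4 were called higher in LPS GMP-MoP (Ccr2, Ctss, Lgals3 and Itgb7) and 0 lower, and the median was 0.25. In LPS proNeu1, 2 were called higher (Ccr2 and Ctss) and 0 lower. Of 16 measured interferon-stimulated genes, 2 were called higher in GMP-MoP (Oas1a and Ifi27l2a) and 1 in proNeu1 (Ifi27l2a). Of 8 macrophage markers limma called 0 in either population, with 3 in GMP-MoP and 2 in proNeu1 at an unadjusted p under 0.05, as had 41.4% and 39.6% of all genes. Of the 14 basophil, eosinophil and mast cell markers, 5 were called lower in LPS proNeu1 (Epx, Ear1, Ear2, Ear6 and Gata2), with sums of 453 to 1004 FPKM in naive and 214 to 323 FPKM in LPS libraries. In LPS GMP-MoP 1 of the 14 was, Hdc. Of 6 progenitor markers 1 was called lower in both populations, Cd34, a surface protein of early progenitors, at 98.5 ± 9.33 FPKM in naive and 43.7 ± 6.45 FPKM in LPS GMP-MoP. The summed progenitor markers were at 203 to 229 and 99.3 to 129.8 FPKM there, and at 103.8 to 112.6 and 54.98 to 69.05 FPKM in proNeu1. The part of these in the changes of the Ms4a6 genes was not tested.

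Among LPS libraries the same pairs of populations were compared. In LPS GMP-MoP against LPS proNeu1, 3 of 4 genes were called, with 6.16% of all genes: Ms4a6c 8.16-fold higher (2.97 ± 0.13, limma adjusted p = 3.49e-15), Ms4a6b 2.87-fold (1.42) and Ms4a6d 3.72-fold (1.60). Ms4a3 had -0.62 ± 0.11. In LPS GMP-MoP against LPS GMP, Ms4a6c (1.87 ± 0.13) and Ms4a6d (2.12 ± 0.17) were called, with 5.58% of all genes. For Ms4a3 the value there was -0.11 ± 0.11 (limma adjusted p = 0.465), with every LPS GMP-MoP library just below every LPS GMP library. LPS proNeu1 against LPS GMP had Ms4a6c called lower (-1.10 ± 0.13), with 8.13% of all genes called. That call was lost without the second LPS proNeu1 library (-0.98) and with median-of-ratios scaling (-0.95). LPS proNeu2 against LPS proNeu1 had Ms4a6c (-1.89 ± 0.13) and Ms4a6b (-1.08 ± 0.14) called lower, with 2.73% of all genes; Ms4a6b was at -0.998 and not called with median-of-ratios scaling.

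5 other genes of the family list were in the table, and the remaining 12 of its 21 names are not analysed here. Ms4a2, the IgE receptor chain of basophils and mast cells, was at 257 ± 48.4 FPKM in naive GMP and 145 ± 11.7 FPKM in LPS GMP, and under 5 FPKM on average in all other groups. It lies between Ms4a6d and Ms4a3 on the chromosome. Ms4a4c was highest in naive cMoP, at 25.99 ± 0.958 FPKM, then in MDP at 13.1 ± 0.868 FPKM. After LPS it was called lower in GMP (-1.23 ± 0.14, limma adjusted p = 1.38e-07), and it differed by 2.22 ± 0.19 between the LPS effects in GMP-MoP and GMP (limma adjusted p = 1.51e-08). Ms4a4b was at 5.17 ± 0.311 FPKM in cMoP and at 0 reads in all 3 LPS proNeu2 libraries. Tmem176a and Tmem176b, related genes on chromosome 6 known from dendritic cells, were highest in naive MDP at 41.9 ± 1.42 and 69.3 ± 1.43 FPKM. Both were called lower in cMoP than in MDP (-1.06 and -1.30), where 0 of 3 Ms4a6 genes were called lower and all 3 had values above 0.

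**Figure D5:**
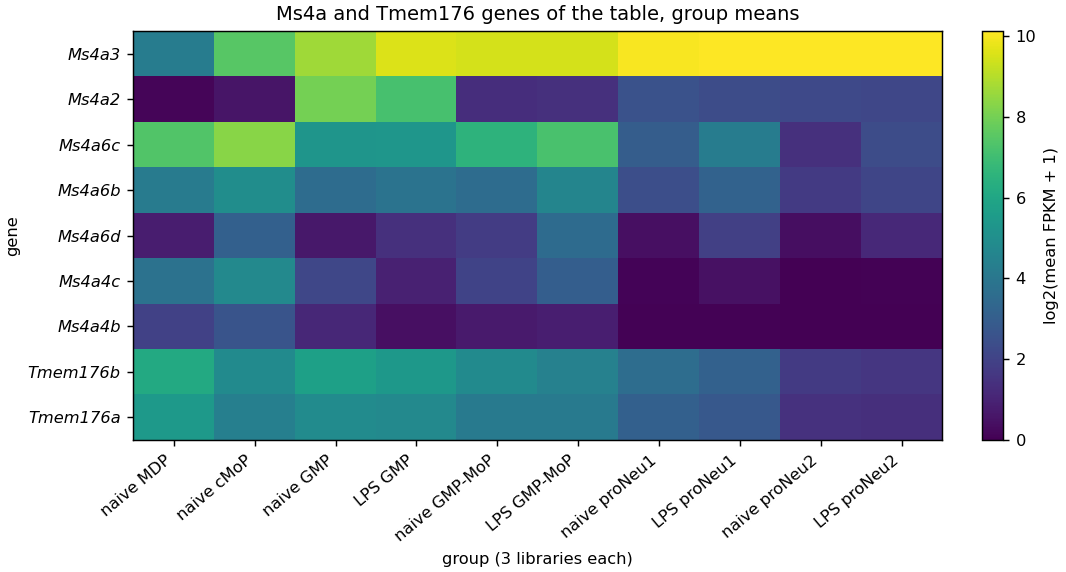
Group means of the 9 family genes in the table, as log2(mean FPKM + 1), over 10 groups of 3 libraries. Ms4a2 stands out in the GMP columns (257 and 145 FPKM), Ms4a6c and Ms4a4c in naive cMoP, and Tmem176a and Tmem176b in naive MDP.

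The likeness of patterns was described by Pearson's r over 10 group means of log2(FPKM + 1), for 7154 genes with a highest group mean of at least 10 FPKM. Predicted genes (Gm numbers and Rik names) and immunoglobulin segments had been left out. Ms4a6b and Ms4a6c had an r of 0.976 with each other, and Ms4a6d had 0.71 with Ms4a6b and 0.656 with Ms4a6c. Ms4a3 had -0.56 with Ms4a6b, -0.632 with Ms4a6c and 0.002 with Ms4a6d. The genes most like Ms4a3 were Dio2, a thyroid hormone deiodinase (0.989), Ifngr1, an interferon-gamma receptor chain (0.977), Plpp5 (0.977), the cargo receptor gene Surf4 (0.977) and Ap3s1, of the AP-3 vesicle coat (0.976). Ifngr1 ran from 50.4 FPKM in naive MDP to 259 FPKM in naive proNeu1. Ms4a6c was closest to Akr1a1, an aldehyde reductase (0.992), Ccr2, the chemokine receptor of monocyte egress (0.988), Lgals1, galectin-1 (0.985), Lpxn (0.983) and Otulin, a deubiquitinase (0.982). Ccr2 ran from 0.21 FPKM in LPS proNeu2 to 106 FPKM in naive cMoP. Ms4a6b was closest to Ccr2 (0.98), Psme2 (0.98), Polb (0.976), Ms4a6c (0.976) and Spns1 (0.975). For Ms4a6d they were Adam9 (0.965), Slfn9 (0.957), Vps11 (0.954), Cstb (0.936) and Mrpl33 (0.931), which were highest in naive cMoP or LPS GMP-MoP. The 10 means share their libraries across genes, and the genes were chosen for their r.

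Depth was 23.6 to 41.3 M reads per library (median 28.6 M), as recovered from the FPKM values. The members stood on between 431 and 44377 reads per library for Ms4a3, 82 and 22536 for Ms4a6c, 102 and 3231 for Ms4a6b, and 2 and 517 for Ms4a6d, so Ms4a6d is the least precise. The 15 monocyte markers summed to 4190 to 4264 FPKM in naive cMoP, 2601 to 2966 FPKM in GMP-MoP, 1177 to 1282 FPKM in MDP and 253 to 370.4 FPKM in GMP. They did not separate monocyte from neutrophil progenitors as a sum, since naive proNeu1 held 1594 to 1845 FPKM and proNeu2 1662 to 2017 FPKM, above MDP. Most of the sum in these 2 groups was Ly6c2 alone, at 1609 ± 117 FPKM in naive proNeu1 and 1808 ± 176 FPKM in proNeu2. Ly6c2 also made up most of the sum in naive GMP-MoP, at 2183 ± 125 FPKM, and was at 2228 ± 55.5 FPKM in cMoP. In naive MDP Ly6c2 was at 90.3 ± 1.58 FPKM. The sums thus do not rank GMP-MoP and MDP by the other markers. Taken gene by gene, 2 of the 15 markers, Ly6c2 and Cd14, were called higher in naive GMP-MoP against MDP. The calls went the other way for 6, and the median log2 fold change was -0.80. Of the 15 markers, 8 had a mean below 1 FPKM in naive proNeu2. The 12 genes of the list for primary granules summed to 24190 to 25720 FPKM in naive proNeu1 and 3086 to 3327 FPKM in MDP. None of 8 T and NK cell marker genes was in the table.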

How the data were processed

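RNA of sorted mouse bone marrow progenitors was sequenced from 30 libraries in 10 groups of 3, made with a strand-keeping kit per the labels' protocols. The authors deposited 1 table of FPKM values for 11383 genes. The submitters' processing notes name Trimmomatic 0.38.0, STAR 2.7.8, featureCounts 2.0.1 and the mm10 build; which annotation release and strand setting were used is not given in the sources used here. The 4 genes, the gene lists and the tests were chosen with earlier results of these data known.

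Differences were fitted with limma 3.58.1 in R 4.3.3 on log2(FPKM + 1). A single fit held the 30 libraries, with a mean-variance trend and Benjamini-Hochberg adjustment over all genes of each comparison. The filter of at least 1 FPKM in at least 3 libraries removed 0 genes. A call needed a change of at least 1 on the log2 scale and an adjusted p under 0.05. Intervals are 1.96 SE to each side. Replicates are labelled biological, but nothing says that each came from a separate mouse. The p-values thus measure the spread between libraries, which may not be that between mice.

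The deposited FPKM values gave whole reads for 11383 of 11383 genes, within 0.02 reads or a relative error of 1e-07 (at most 0.1 reads), and for 0 of 200 genes with disturbed values. The recovered exon lengths were within 1% of the merged exons of GENCODE M21 for only 2657 of 11208 genes with such a length. Read numbers and depths thus rest on inferred lengths. Voom on the recovered reads was an alternative. Others were a pseudocount of 0.1, median-of-ratios scaling, no filter, a mean of at least 5 FPKM, a replicate block, the compared groups alone and leaving out each library. A block within LPS groups alone was added after seeing the data. Same-numbered libraries correlated in their deviations by 0.0875 to 0.404 between LPS groups, where all 3 pairs were over 0.1 in 5 of 6 group pairs, so the numbers were taken to pair LPS libraries there, from the data alone. Between naive groups the values were -0.202 to 0.375, and across treatment -0.246 to 0.118, with 0 group pairs all over 0.1. Genes named are the 4 members, the other family genes in the table, the 5 genes most like each member, and list markers beside a result they move with. Positions are from GENCODE M21 and promoters from RefSeq; Ms4a6d had no promoter entry. Python 3.11.15, pandas 2.3.3, numpy 2.4.6 and matplotlib 3.10.9 were used.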

Additional observations from a re-analysis of the deposited data

Results flagged for a closer look

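The LPS effect differed between populations, by the test of the difference itself in limma (adjusted p under 0.05), for 7 values. Between GMP-MoP and GMP the difference of log2 effects was -0.93 for Ms4a3, 0.70 for Ms4a6b, 0.61 for Ms4a6c and 0.95 for Ms4a6d. Between proNeu1 and GMP it was -0.87 for Ms4a3, 1.197 for Ms4a6c and 0.72 for Ms4a6d. All 7 use the same naive and LPS GMP libraries, so they are not independent, and only the value of 1.197 also passed the 2-fold limit. Of 19 measured monocyte markers, Ms4a genes included, 10 were called higher in GMP-MoP minus GMP and 11 in proNeu1 minus GMP, with 2 lower in each. For Ms4a6d both values lost their adjusted p with a pseudocount of 0.1 and with voom. The naive GMP libraries held 18440 to 20340 summed FPKM of basophil, eosinophil and mast cell markers and the LPS ones 7468 to 9016 FPKM; the part of this in the differences was not tested.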

How the results depend on the processing

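Of 610 values of the 4 genes under other settings, 595 kept direction and call; of 624 with 1 library left out, 591 did. The replicate block changed no call of the 4 genes and moved 0 of 44 counts of all genes by over 1.5 times (Ms4a3 in LPS GMP against naive GMP stayed at 0.93 with the block), and a block within LPS groups alone moved 0 of 8. With a pseudocount of 0.1, calls were gained for Ms4a6d after LPS in GMP (1.73) and proNeu2 (1.74), Ms4a6c after LPS in proNeu2 (1.30) and Ms4a6d in LPS proNeu2 against LPS proNeu1 (-1.09); with voom these were 2.07, 2.00, 1.38 and -1.08. The Ms4a6d effect in GMP-MoP minus proNeu1 turned to -0.73 and -1.01, and with voom that of Ms4a6c in proNeu2 minus proNeu1 to 0.017. Scaling by median of ratios gave calls for Ms4a6c in cMoP against MDP (1.01) and after LPS in proNeu2 (1.05), and took them from Ms4a6c in LPS proNeu1 against LPS GMP (-0.95) and Ms4a6b in LPS proNeu2 against LPS proNeu1 (-0.998). It moved the median of all genes by 0.124 in naive and 0.133 in LPS proNeu1 against GMP. The cause of these changes was not tested. Counts of all genes moved by over 1.5 times in 28 of 44 cases at a mean of at least 5 FPKM, where Ms4a6d has no value, in 20 with a pseudocount of 0.1, 23 with voom, 2 with scaling and 1 with the compared groups alone.

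With 1 library left out, calls or signs changed in these ranges. For Ms4a3 they were 0.76 to 1.02 (LPS in GMP), -1.02 to -0.75 (GMP-MoP minus GMP), -0.081 to 0.081 (LPS in GMP-MoP), -0.097 to 0.117 (LPS in proNeu2), -0.14 to 0.022 (GMP-MoP minus proNeu1), -0.16 to 0.057 (proNeu2 minus proNeu1), -0.028 to 0.19 (naive proNeu2 against proNeu1) and -0.036 to 0.065 (the same with LPS). For Ms4a6b they were -0.10 to 0.15 (GMP-MoP against GMP) and 0.95 to 1.07 (LPS in GMP-MoP). For Ms4a6c they were -1.03 to -0.76 (GMP-MoP against MDP), -0.011 to 0.14 (LPS in GMP), 0.83 to 1.07 (LPS in proNeu2) and -1.16 to -0.98 (LPS proNeu1 against LPS GMP). For Ms4a6d they were 0.90 to 1.11 (GMP-MoP against MDP), 0.90 to 1.32 (GMP-MoP against GMP), -0.11 to 0.32 (MDP against GMP), -0.14 to 0.080 (proNeu2 against proNeu1) and 0.79 to 1.22 (GMP-MoP minus GMP). Low read numbers limit Ms4a6d, with 2 reads in 1 naive GMP library.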
